A study of Mus musculus with 6 samples.

Results

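Cholesterol and fatty acid synthesis genes were followed across 6 RNA libraries of mouse pancreatic islets. The list was written down by pathway role and not by measured values, though with earlier results of these data known. It holds 35 genes, all 35 of which matched a single identifier among the 34745 genes of the deposited table: 19 genes of the sterol branch, 11 of the fatty acid branch and 5 regulators. Messenger RNA was sequenced from isolated islets of C57BL/6 mice aged 8 weeks, with 2 libraries in each of 3 groups. The WT group is wild type. The KO group carries the genotype Beta RapKO, in which Rptor, the gene of the mTORC1 subunit Raptor, is deleted in beta cells. The KO+DNMT3A group is Beta RapKO with Dnmt3a expression, supplied by a lentivirus (LvDnmt3a in the design text). GFP appears in the deposited names of the WT and KO libraries, and the labels do not say what it refers to. The promoter that drives recombination, the number of mice behind a library and the share of islet cells that took up virus are not given in the sources used here. Nothing says that the libraries come from separate animals, so p-values reflect the variation of these libraries alone, and it may be technical.

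Cells make cholesterol and fatty acids from the same cytosolic acetyl-CoA. The sterol branch runs from acetoacetyl-CoA through mevalonate, farnesyl pyrophosphate and squalene to lanosterol and cholesterol, and the fatty acid branch runs through malonyl-CoA to palmitate, which is then desaturated and elongated. Both are controlled by the SREBP transcription factors, which SCAP escorts from the endoplasmic reticulum to the Golgi for cleavage when sterols are low and which INSIG proteins hold back when sterols are plentiful. SREBP-2 acts mainly on sterol genes and SREBP-1c mainly on fatty acid genes, and mTORC1 is known to promote SREBP activity. In beta cells, ATP citrate lyase uses citrate that leaves the mitochondria during glucose metabolism.

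Promoter sequence is shown for 3 members whose values are described below: Hmgcs1, a sterol gene, Insig1, a feedback regulator, and Acly, the most abundant member. Sequences are from RefSeq on GRCm38.p6, on the gene's strand, and stop before the annotated transcript. Capitals mark letters that match TCACNCCAC (the core of the sterol regulatory element bound by SREBP), CCAAT (the box bound by NF-Y, a usual partner of SREBP) or CACGTG (an E-box), on either strand, so that CCAAT on the opposite strand reads ATTGG. The windows are chr13:119690101-119690350 on the plus strand for Hmgcs1, chr5:28071162-28071362 on the plus strand for Insig1 and chr11:100528001-100528250 on the minus strand for Acly.
Hmgcs1: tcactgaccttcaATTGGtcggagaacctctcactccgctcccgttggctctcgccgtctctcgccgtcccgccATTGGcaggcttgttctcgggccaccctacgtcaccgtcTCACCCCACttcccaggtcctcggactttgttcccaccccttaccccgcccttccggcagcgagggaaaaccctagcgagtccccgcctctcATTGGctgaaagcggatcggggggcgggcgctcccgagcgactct
Insig1: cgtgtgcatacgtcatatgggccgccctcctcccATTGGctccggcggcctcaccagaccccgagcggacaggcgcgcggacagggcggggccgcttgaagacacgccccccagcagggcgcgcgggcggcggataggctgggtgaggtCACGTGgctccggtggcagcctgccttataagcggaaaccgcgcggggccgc
Acly: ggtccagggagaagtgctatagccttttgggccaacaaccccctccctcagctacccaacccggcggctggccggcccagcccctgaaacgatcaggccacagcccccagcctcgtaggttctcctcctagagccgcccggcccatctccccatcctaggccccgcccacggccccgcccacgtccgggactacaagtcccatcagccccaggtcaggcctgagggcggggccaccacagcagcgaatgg

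Hmgcs1 was the only member with a TCACNCCAC match in the 250 bases before a RefSeq start, out of 28 members with such a window, and the match began 137 bases before the start. The same letters occur in 1.05% of all 32851 promoter windows of this length. A gene can have several windows. CCAAT was present in 14 of the 18 windows of sterol genes and in 4 of the 9 windows of fatty acid genes, against 33.8% of all windows. CACGTG was present in 6 of the 37 windows of members, those of Insig1, Dhcr7, Hsd17b7, Sc5d, Elovl5 and Scap, against 6.02% of all windows. The Acly window holds none of the 3 motifs. The 3 motifs were chosen after a wider set had been scanned, and a match is a string of letters, not a measured binding site.

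The libraries differ in depth and in their beta cell signal, and both bear on every value below. The values are the authors' FPKM (fragments per kilobase of transcript, scaled to library size). Steps between low values imply a depth of 244791 fragments for WT replicate 1 and of 780239 to 1919974 fragments for the others. A transcript 2 kb long gains 2.04 FPKM per fragment in the shallowest library and 0.26 FPKM in the deepest, KO+DNMT3A replicate 1. Ins1 and Ins2 made up 0.17% of the summed FPKM in WT replicate 1 and 0.11% in KO replicate 2, against 16.5% to 30.5% in the other 4 libraries. These 2 libraries, 1 of WT and 1 of KO, are called insulin-poor here, and mitochondrially encoded genes took 44.8% and 50.9% of their FPKM, against 16.5% to 26.5% elsewhere. Rptor lay between 0.38 and 1.93 FPKM with its highest KO value above both WT values, and Dnmt3a was 3.62 and 3.80 FPKM with added Dnmt3a, against 3.19 and 2.5 FPKM for KO and 2.94 and 4.43 FPKM for WT. Rptor thus did not separate the labelled groups, and Dnmt3a lay higher in both KO+DNMT3A libraries than in both KO libraries but did not separate either from WT. A gene-level FPKM of whole islets does not resolve exons or cell types. Neither the deletion nor the library labels were tested further. Of the markers of adipocytes, cells rich in lipid synthesis transcripts, Adipoq, Plin1, Cidec, Lep and Cfd were listed at 0 in all 6 libraries. Retn was 2.23 FPKM in 1 library, Pparg lay between 0 and 1.51 FPKM, and Fabp4 was present in all 6, at 1.57 to 4.24 FPKM. The 8 adipocyte markers summed to 1.57 to 5.09 FPKM.

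Counting precision was uneven among the members. If each gene's longest transcript is assumed, at least 10 fragments stood behind 33 of the 35 members in KO+DNMT3A replicate 1, 28 in KO replicate 1, 22 in KO+DNMT3A replicate 2, 20 in WT replicate 2 and 16 in KO replicate 2. In WT replicate 1 the number was 4, and 8 members rested there on less than 1 fragment. Nsdhl, Hsd17b7, Dhcr7 and Fads2 were listed at 0 in WT replicate 1, which is within what its depth can miss.

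**Figure D1:**
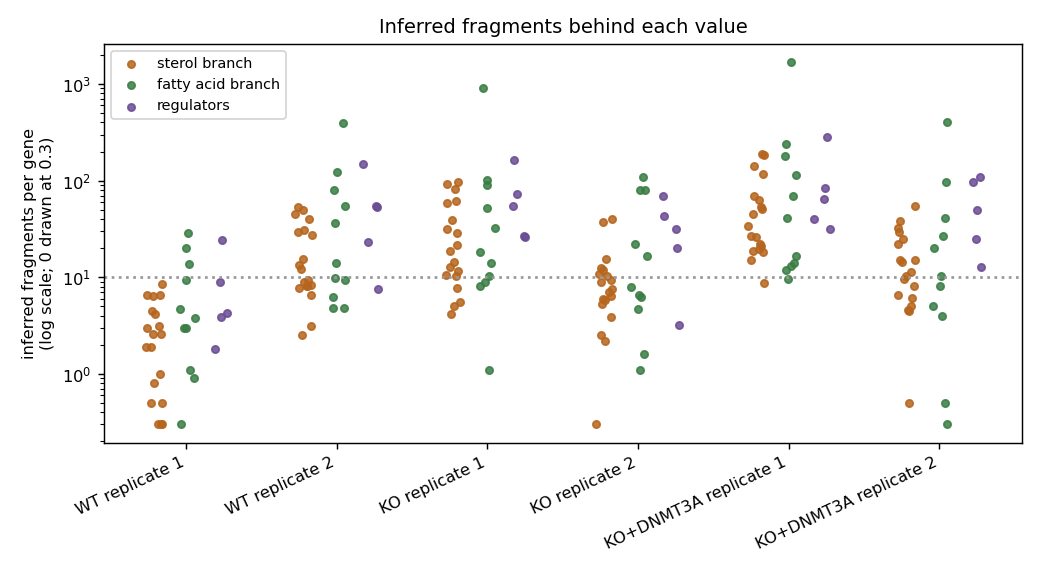
Inferred fragments behind the FPKM value of each member (points, log scale, a value of 0 drawn at 0.3) in each library, coloured by branch, with a dotted line at 10 fragments. Only 4 members reach the line in WT replicate 1 and 33 do in KO+DNMT3A replicate 1.

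In all 6 libraries the level of these genes, read per length in FPKM, was led by Acly, at a mean of 95.4 FPKM, which was above the mean of 98.5% of the 13233 genes tested. The next members were Srebf2 (22.9 FPKM), Elovl5 (17.8 FPKM), Scd2 (16.5 FPKM), Insig1 (16.4 FPKM), Fdft1 (15.6 FPKM), Hmgcs1 (14.2 FPKM), Pmvk (11.8 FPKM) and Srebf1 (11.3 FPKM), and these 9 were the members with a mean of at least 10 FPKM. Acly exceeded Srebf2 in each library, while neighbours further down this order overlapped in their ranges over the libraries. At the other end, 13 members had a mean under 3 FPKM. They included Acaca, the rate-limiting enzyme of fatty acid synthesis that makes malonyl-CoA, at 0.40 to 1.06 FPKM, and Elovl6, the elongase of palmitate, at 0.08 to 2.59 FPKM. These 2 did not reach 1 FPKM in 2 libraries and were left out of the gene test, and the remaining 33 entered it.

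**Figure D2:**
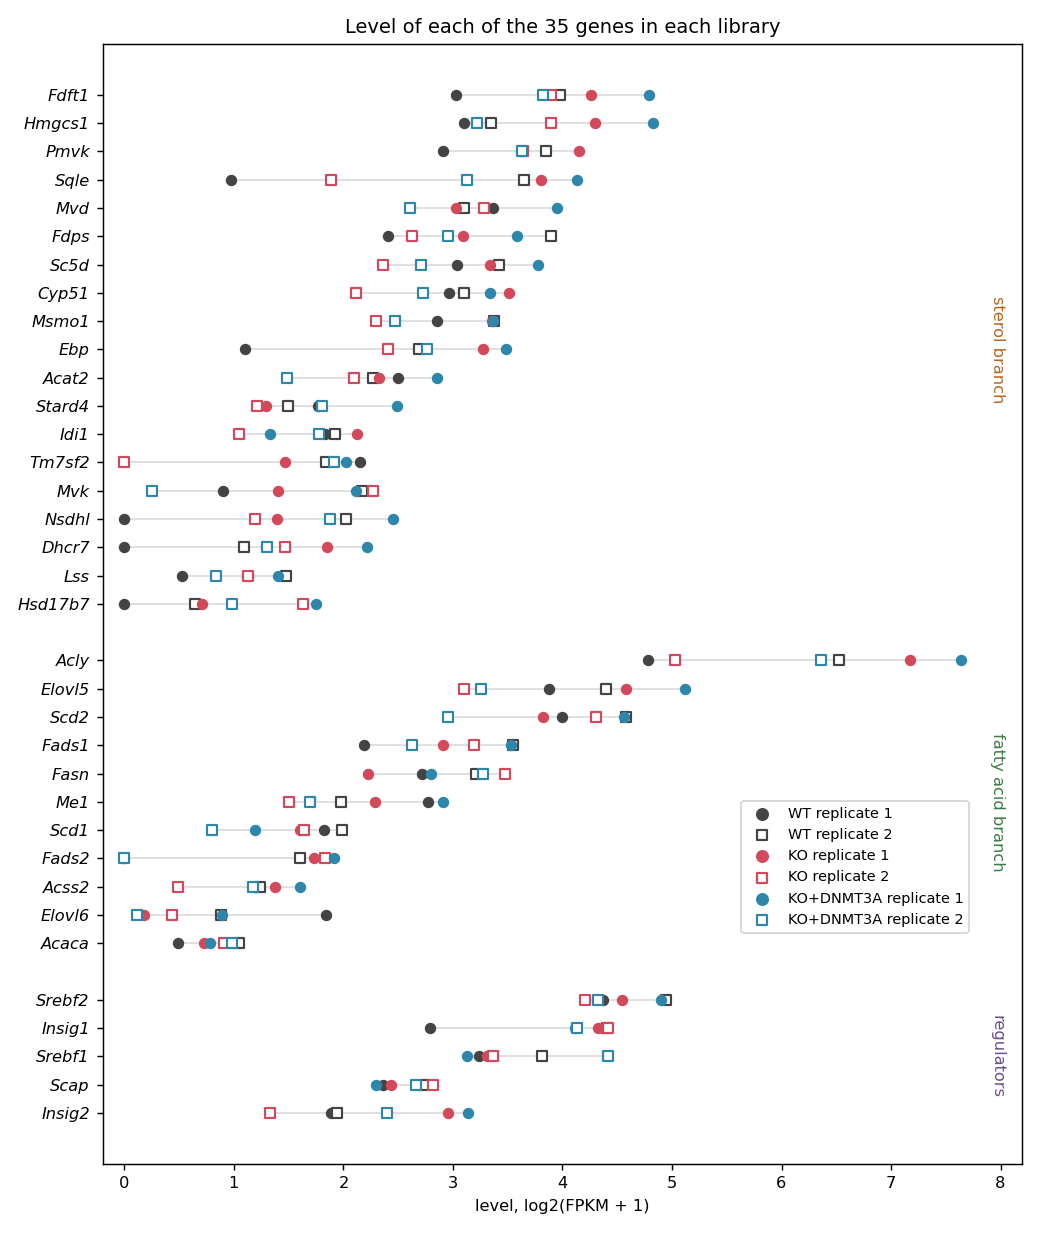
Level of each member on the log2(FPKM + 1) scale in each of the 6 libraries (filled circles replicate 1, open squares replicate 2, colour by group), grouped by branch and ordered by mean. Acly is the highest member, and the 2 symbols of a colour are often further apart than the colours are.

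Among the regulators, Srebf2 (ENSMUSG00000022463, chromosome 15, 82147181 to 82205379, GRCm38), which encodes SREBP-2, was, replicate 1 first here and in what follows, 19.7 and 29.9 FPKM in the WT pair, 22.4 and 17.5 FPKM in the KO pair, and 28.8 and 19.01 FPKM in the KO+DNMT3A pair. The groups overlapped in every comparison. Srebf1 (ENSMUSG00000020538, chromosome 11, 60199089 to 60222581), which encodes SREBP-1a and SREBP-1c, was 8.44 and 13.1 FPKM in the WT pair, 8.92 and 9.33 FPKM in the KO pair, and 7.75 and 20.3 FPKM in the KO+DNMT3A pair. The KO+DNMT3A libraries thus held both its lowest and its highest value. Srebf2 exceeded Srebf1 by 1.87 to 3.72 times in 5 libraries, and the ratio was 0.94 in KO+DNMT3A replicate 2. A gene-level value does not separate the Srebf1 isoforms and says nothing of protein cleavage.

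Scap, the escort protein gene, was the steadiest regulator, at 4.13 and 5.65 FPKM in the WT pair, 4.41 and 6.04 FPKM in the KO pair, and 3.92 and 5.32 FPKM in the KO+DNMT3A pair. Insig1, the INSIG gene that is itself an SREBP target, lay lowest in WT replicate 1, at 5.91 FPKM, and between 16.3 and 20.4 FPKM in the other 5 libraries (20.2 FPKM in the other WT library, 19.1 and 20.4 FPKM in the KO pair, 16.3 and 16.6 FPKM in the KO+DNMT3A pair). The low WT value rests on about 3.9 fragments. Insig2, its relative, was 2.70 and 2.85 FPKM in the WT pair, 6.77 and 1.52 FPKM in the KO pair, and 7.78 and 4.26 FPKM in the KO+DNMT3A pair. Both KO+DNMT3A values of Insig2 lay above both WT values, and the KO values fell on either side of them.

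The early mevalonate steps held both abundant and low sterol genes. Hmgcs1 (ENSMUSG00000093930, chromosome 13, 119690379 to 119708260), HMG-CoA synthase, was 7.58 and 9.21 FPKM in the WT pair, 18.7 and 13.9 FPKM in the KO pair, and 27.4 and 8.30 FPKM in the KO+DNMT3A pair. Both KO values were above both WT values, and the KO+DNMT3A values lay on opposite sides of KO. Pmvk, phosphomevalonate kinase, was 6.52 and 13.4 FPKM in the WT pair, 16.8 and 11.5 FPKM in the KO pair, and 11.3 and 11.4 FPKM in the KO+DNMT3A pair. Acat2, the cytosolic thiolase that opens the branch, lay between 1.79 and 6.24 FPKM, Mvk, mevalonate kinase, between 0.19 and 3.81 FPKM, and Mvd, which decarboxylates mevalonate pyrophosphate, between 5.08 and 14.5 FPKM. Mvk, Mvd and Acat2 were each lowest in KO+DNMT3A replicate 2. Idi1, the isoprenoid isomerase, stayed between 1.07 and 3.36 FPKM, and Fdps, farnesyl pyrophosphate synthase, between 4.31 and 13.9 FPKM.

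At the branch point to sterols, Fdft1, squalene synthase, was 7.14 and 14.7 FPKM in the WT pair, 18.1 and 13.9 FPKM in the KO pair, and 26.6 and 13.1 FPKM in the KO+DNMT3A pair. Sqle, squalene epoxidase, a rate-limiting step, varied most among the sterol genes whose values are all above 0.9 FPKM: 0.96 and 11.5 FPKM in the WT pair, 13.0 and 2.70 FPKM in the KO pair, and 16.6 and 7.74 FPKM in the KO+DNMT3A pair. Its 2 lowest values were those of the insulin-poor libraries, on about 1.0 fragment in WT replicate 1 and 9.4 in KO replicate 2. Mvk, outside the 0.9 FPKM limit, ranged from 0.19 to 3.81 FPKM. Sqle is shown in full because of the order of its 2 lowest values, seen after its values were known. The lanosterol synthase gene Lss stayed between 0.44 and 1.78 FPKM, and the lanosterol demethylase gene Cyp51 between 3.32 and 10.4 FPKM.

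In the later steps most members were low. Tm7sf2, a sterol C14 reductase, was 3.43 and 2.59 FPKM in the WT pair, 1.77 FPKM and then listed at 0 in the KO pair, and 3.06 and 2.76 FPKM in the KO+DNMT3A pair. Both KO values were below the other 4, on about 7.8 fragments and none. Hsd17b7, a 3-keto sterol reductase, was listed at 0 and at 0.56 FPKM in WT, 0.63 and 2.09 FPKM in the KO pair, and 2.36 and 0.97 FPKM in the KO+DNMT3A pair. Ebp, the sterol isomerase, was 1.15 and 5.47 FPKM in the WT pair, 8.65 and 4.31 FPKM in the KO pair, and 10.2 and 5.77 FPKM in the KO+DNMT3A pair. Dhcr7, which makes cholesterol from 7-dehydrocholesterol, was listed at 0 and at 1.13 FPKM in WT, 2.6 and 1.76 FPKM in the KO pair, and 3.65 and 1.47 FPKM in the KO+DNMT3A pair. For Dhcr7 and Hsd17b7 all 4 values of KO and KO+DNMT3A lay above both WT values. The WT values rest on at most 3.1 fragments. Msmo1, a C4 methyl oxidase, ranged from 3.90 to 9.37 FPKM, Nsdhl, a sterol dehydrogenase, from 0 to 4.49 FPKM, and Sc5d, the C5 desaturase, from 4.15 to 12.7 FPKM. Stard4, a carrier that moves cholesterol between membranes, was 1.32 to 2.50 FPKM in 5 libraries and 4.6 FPKM in KO+DNMT3A replicate 1.

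In the fatty acid branch, Acly (ENSMUSG00000020917, chromosome 11, 100476353 to 100528000), which cleaves citrate to acetyl-CoA, was 26.4 and 91.3 FPKM in the WT pair, 143.5 and 31.6 FPKM in the KO pair, and 198.4 and 81.1 FPKM in the KO+DNMT3A pair. The 2 lowest values, 26.4 and 31.6 FPKM, were those of the insulin-poor libraries, and the other 4 were at least 81.1 FPKM. The ratio between the 2 libraries of a group was 3.45 in WT, 4.54 in KO and 2.45 in KO+DNMT3A, each beyond counting error (exact binomial 95% intervals on inferred fragments, for replicate 1 over replicate 2, of 0.194 to 0.428, 3.73 to 5.60 and 2.19 to 2.74, which cover counting error only). In bulk islets, fewer beta cells and less RNA per beta cell cannot be told apart. Acss2, which makes acetyl-CoA from acetate, was low, at 0.40 to 2.03 FPKM, and Acly exceeded it by 20.7 to 97.5 times.

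Fasn, fatty acid synthase, did not follow Acly: it ranged from 3.68 FPKM in KO replicate 1 to 10.1 FPKM in KO replicate 2, and Acly exceeded it by 3.12 to 39.0 times. The malic enzyme gene Me1, a source of NADPH, was 1.83 to 6.52 FPKM. Scd2 and Scd1 encode stearoyl-CoA desaturases and lie beside each other on chromosome 19. Scd2 was 15.0 and 23.0 FPKM in the WT pair, 13.1 and 18.8 FPKM in the KO pair, and 22.6 and 6.73 FPKM in the KO+DNMT3A pair. Scd1 was 2.53 and 2.97 FPKM in the WT pair, 2.03 and 2.12 FPKM in the KO pair, and 1.29 and 0.74 FPKM in the KO+DNMT3A pair, on 3 to 14 fragments. Scd2 thus exceeded Scd1 by 5.91 to 17.5 times in all 6 libraries, although whether reads were shared between the 2 related genes was not tested. The Scd1 values of the groups did not overlap in any comparison, with WT highest and KO+DNMT3A lowest. Scd1 does not meet the rule for giving values in every library and was picked for this order after its values were seen. Macrophage markers (8 genes) also summed lowest in KO+DNMT3A, to 218 and 145 FPKM against 511 and 482 FPKM for WT and 488 and 313 FPKM for KO, and their part in this or any other KO+DNMT3A difference was not tested.

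Elovl5, an elongase of polyunsaturated fatty acids, was 13.7 and 20.1 FPKM in the WT pair, 23.0 and 7.59 FPKM in the KO pair, and 33.7 and 8.53 FPKM in the KO+DNMT3A pair. It exceeded Elovl6 by at least 5.29 times in every library. Elovl6 was 2.59 and 0.84 FPKM in the WT pair, 0.13 and 0.35 FPKM in the KO pair, and 0.85 and 0.08 FPKM in the KO+DNMT3A pair. Both KO values of Elovl6 were below both WT values, on 1.1 and 1.6 fragments. The desaturase genes Fads1 and Fads2, which act on polyunsaturated fatty acids, ranged from 3.55 to 10.7 FPKM and from 0 to 2.76 FPKM. Fads2 was listed at 0 in WT replicate 1 and in KO+DNMT3A replicate 2.

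Added up, the 19 sterol genes came to 71.5 and 123.5 FPKM in the WT pair, 136.8 and 87.3 FPKM in the KO pair, and 179.6 and 89.5 FPKM in the KO+DNMT3A pair. The group means were 97.5 ± 36.8, 112 ± 35 and 135 ± 63.7 FPKM (SD, n = 2), so the difference between any 2 groups was smaller than the larger of their SDs. The 11 fatty acid genes came to 121 ± 62.0, 142 ± 82.0 and 200 ± 120 FPKM in WT, KO and KO+DNMT3A (SD, n = 2). Without Acly their sum was 50.5 and 73.3 FPKM in the WT pair, 56.9 and 52.8 FPKM in the KO pair, and 87.0 and 34.4 FPKM in the KO+DNMT3A pair. The insulin-poor libraries had the lowest sterol sum of their group and the lowest 2 fatty acid sums of all, and without Acly the lowest fatty acid sum was that of KO+DNMT3A replicate 2. Of the 35 members, 6 had their 2 lowest values in the insulin-poor libraries, against 24.9% of all genes tested. With Ins1, Ins2 and mitochondrially encoded genes left out of the scaling, the number was 10 (6 sterol genes, 2 fatty acid genes and 2 regulators), against 29.7%.

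**Figure D3:**
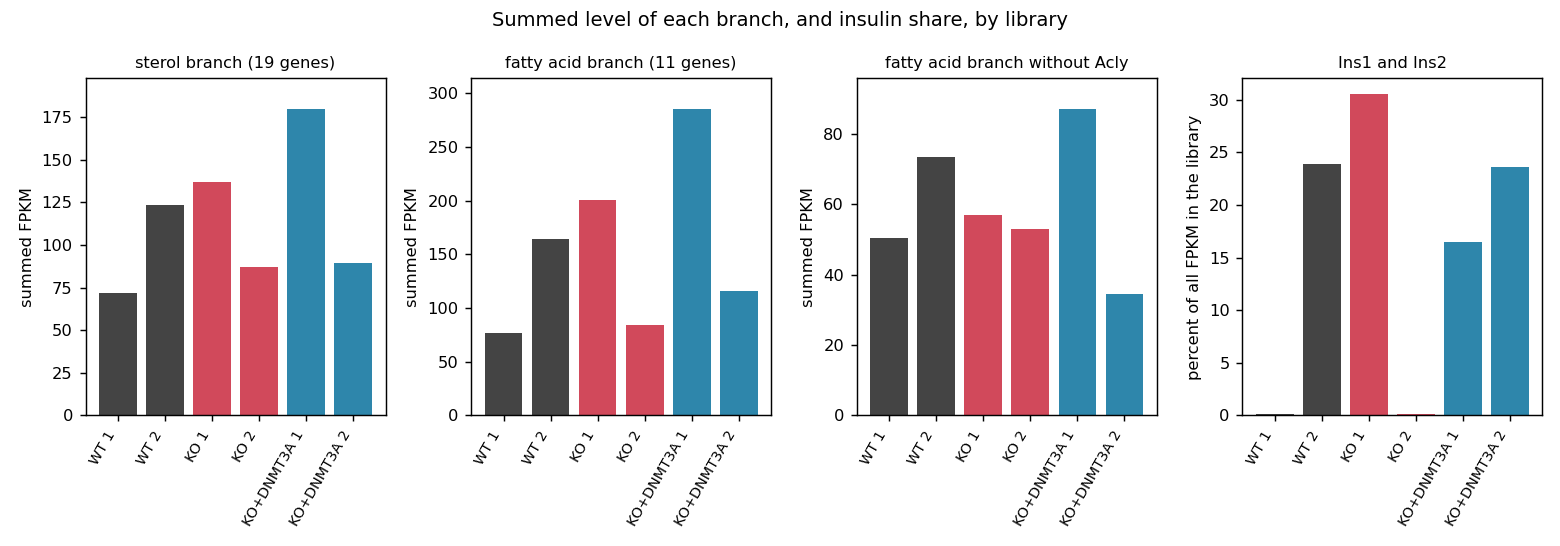
Summed FPKM of the sterol branch, of the fatty acid branch with and without Acly, and the percent of all FPKM taken by Ins1 and Ins2, as a bar for each library (colour by group). The fatty acid sum is lowest in WT replicate 1 and KO replicate 2, the libraries with 0.17% and 0.11% insulin, and the sterol sum is highest in KO+DNMT3A replicate 1.

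The KO and WT libraries address whether loss of Raptor from beta cells goes with other levels of lipid synthesis transcripts. No member passed the limma test over 13233 genes (0 of 33 tested, every adjusted p = 1), and 0% of all genes did. At an unadjusted p under 0.05 there were 0 members and 240 genes. The sterol branch was higher for 10 genes and lower for 9 (median log2 difference 0.12), the fatty acid branch higher for 4 and lower for 7 (median -0.23), and the regulators higher for 3 and lower for 2 (median 0.08), beside a median of 0.03 over all genes. Both KO values lay above both WT values for 4 tested members, Hmgcs1, Dhcr7, Hsd17b7 and Fads2, against 9.36% of genes tested. They lay below for 3 tested members, Tm7sf2, Scd1 and Stard4, against 10.5%, and for Elovl6, which was not tested. These shares are near the background.

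The sterol genes with the smallest p in KO against WT were Tm7sf2 (log2 difference -1.26, SE 0.62, limma adjusted p = 1) and Dhcr7 (1.11, SE 0.62, limma adjusted p = 1). The Tm7sf2 difference was -0.53 without KO replicate 2, and that of Dhcr7 was 0.57 without WT replicate 1. In the fatty acid branch they were Fads2 (0.98, SE 0.81) and Me1 (-0.48, SE 0.64), which did not pass either. The Fads2 difference was 0.17 without WT replicate 1, and that of Me1 was 0.31 when both insulin-poor libraries were left out. Hmgcs1, with group means of 8.40 ± 1.15 FPKM (WT) and 16.3 ± 3.38 FPKM (KO; SD, n = 2), had a difference of 0.87 (SE 0.66). Srebf1 (-0.19, SE 0.62), Srebf2 (-0.28, SE 0.57) and Insig1 (0.78, SE 0.66) did not pass, and the Insig1 difference was -0.03 without WT replicate 1. Leaving out a library moved the sterol median between -0.29 (without WT replicate 1) and 0.59 (without WT replicate 2), and the fatty acid median between -0.37 and 0.06 for the same 2 libraries.

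KO+DNMT3A against KO addresses, by the group names, the addition of Dnmt3a, and it shares the KO libraries with the comparison before. No member passed (0 of 33 tested, every limma adjusted p = 1, against 0% of all genes), with 0 members and 147 genes at an unadjusted p under 0.05. The median log2 difference was 0.20 in the sterol branch (13 higher, 6 lower), 0.18 in the fatty acid branch (8 higher, 3 lower) and 0.23 among the regulators (3 higher, 2 lower), and 0.19 over all genes, so the branch medians were close to that of all genes. With libraries scaled to an equal median gene, the median of all genes was 0.02 and those of the branches were 0.01 and -0.02. Nsdhl, Tm7sf2 and Stard4 had both KO+DNMT3A values above both KO values, against 17.2% of genes tested. Pmvk, Scd1 and Insig1 had both below, against 5.43%.

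By p the leading sterol genes here were Tm7sf2 (1.23, SE 0.62) and Stard4 (0.89, SE 0.53), and the leading fatty acid genes Scd1 (-0.62, SE 0.51) and Fads2 (-0.82, SE 0.81), on the log2 scale, each with a limma adjusted p = 1. The Tm7sf2 difference was 0.50 without KO replicate 2, where the gene was listed at 0. That of Stard4 was 0.56 without KO+DNMT3A replicate 1, and that of Fads2 was 0.13 without KO+DNMT3A replicate 2. Srebf1 (0.43, SE 0.62), Srebf2 (0.23, SE 0.57) and Insig1 (-0.25, SE 0.66) did not pass. Without both insulin-poor libraries, which leaves a single KO library, the sterol median was -0.09 with 7 of 19 genes higher, and the fatty acid median 0.01. Without KO+DNMT3A replicate 1 the sterol and fatty acid medians were -0.19 and -0.20, and without KO+DNMT3A replicate 2 they were 0.65 and 0.50.

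Between KO+DNMT3A and WT, which sets the treated islets against wild type and shares its libraries with the other comparisons, no member passed (0 of 33 tested, limma adjusted p of 0.997 or more, against 0% of all genes), with 0 members and 379 genes at an unadjusted p under 0.05. The median log2 difference was 0.12 in the sterol branch (14 of 19 higher), 0.07 in the fatty acid branch (7 of 11 higher) and 0.25 among the regulators (3 of 5 higher), beside 0.23 over all genes. Scaled to an equal median gene, the sterol and fatty acid medians were 0.05 and -0.05, with 10 and 5 genes higher, beside 0.12 over all genes. Insig2, Dhcr7, Hsd17b7, Stard4 and Ebp had both KO+DNMT3A values above both WT values, against 19.2% of genes tested, and Idi1 and Scd1 had both below, against 7.87%. The leading sterol genes by p were Dhcr7 (1.22, SE 0.62) and Ebp (1.23, SE 0.69), and the leading fatty acid genes Scd1 (-0.91, SE 0.51) and Acly (1.35, SE 0.95), each with a limma adjusted p = 0.997.

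Acly averaged 58.9 ± 45.9 FPKM (WT) and 140 ± 83.0 FPKM (KO+DNMT3A; SD, n = 2), and the difference was 0.47 without WT replicate 1. Those of Ebp and Dhcr7 were 0.43 and 0.67 without the same library. Srebf1 (0.25, SE 0.62), Srebf2 (-0.05, SE 0.57) and Insig1 (0.53, SE 0.66) did not pass, and Insig1 was -0.28 without WT replicate 1. Without both insulin-poor libraries the sterol and fatty acid medians were -0.02 and -0.22, with 9 of 19 and 3 of 11 genes higher. The sterol and fatty acid medians were -0.09 and -0.68 without KO+DNMT3A replicate 1, and 0.58 and 0.39 without KO+DNMT3A replicate 2. They were -0.02 and -0.22 without WT replicate 1, and 0.58 and 0.31 without WT replicate 2.

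**Figure D4:**
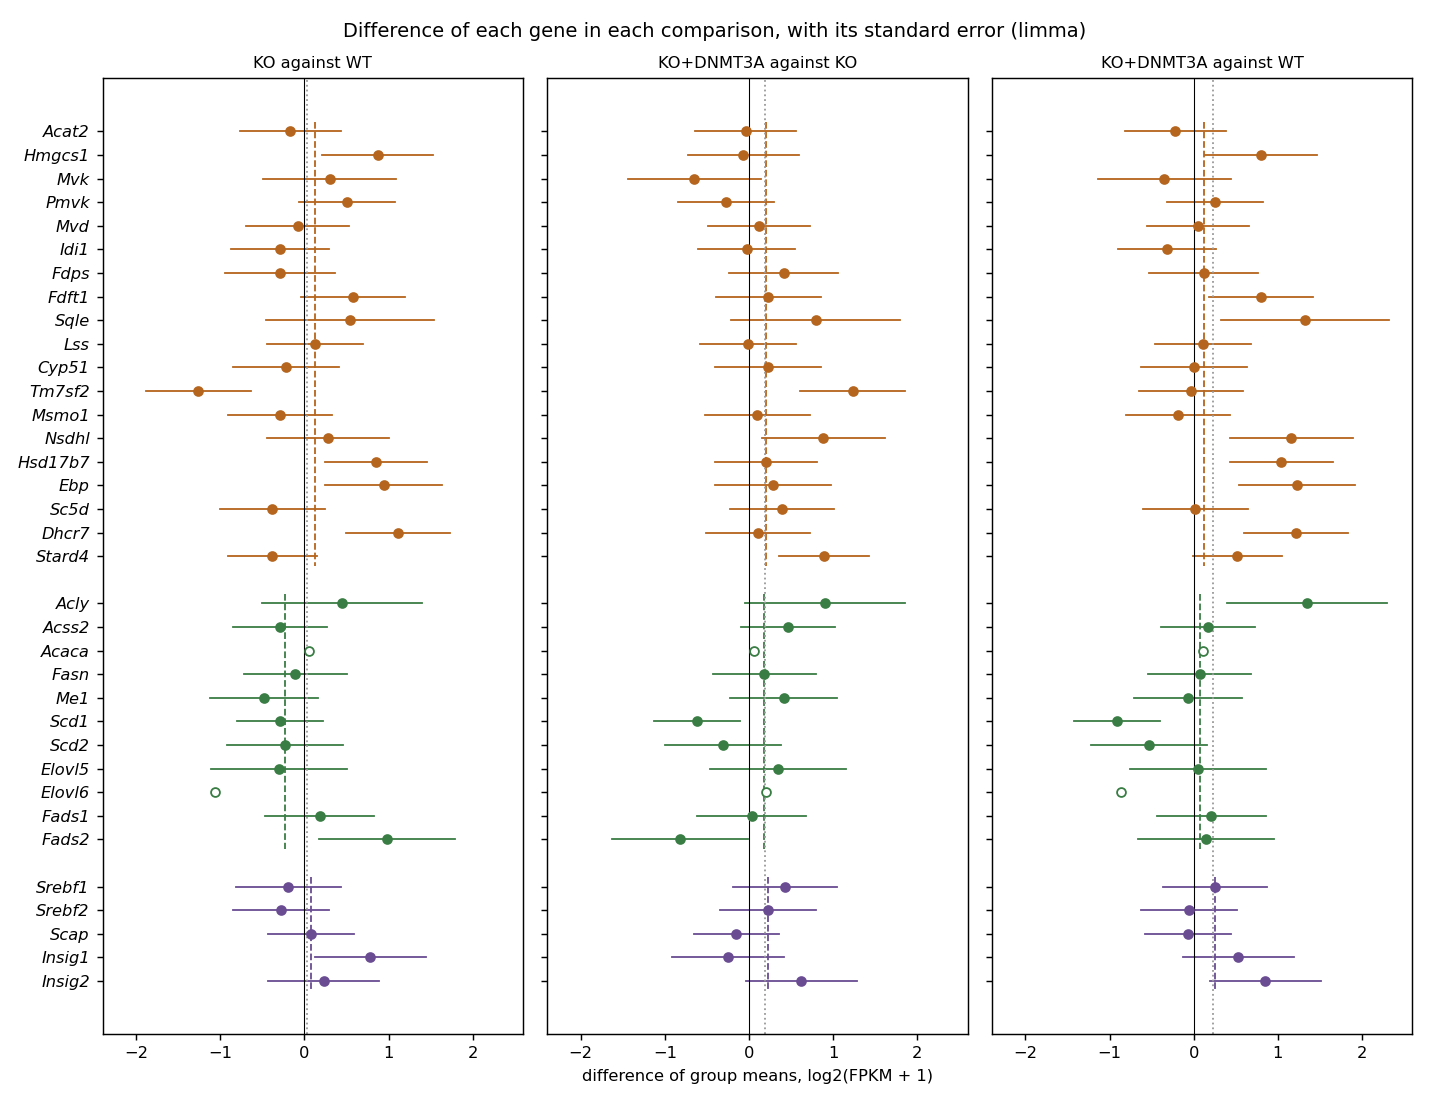
Difference of group means on the log2(FPKM + 1) scale for each member (point) with its standard error from limma (line), in the 3 comparisons, coloured by branch; open points were not tested, dashed lines are branch medians and the dotted line is the median of all genes. Branch medians lie between -0.23 and 0.25, and no member passed the test.

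A contrast wider than any between groups, by the branch medians of sterol and fatty acid genes, lay between the 2 KO+DNMT3A libraries. Replicate 1 exceeded replicate 2 for 17 of 19 sterol genes and 9 of 11 fatty acid genes, and for 2 of 5 regulators, against 54.1% of all genes tested. The median log2 difference between the 2 libraries was 0.77 in the sterol branch and 0.90 in the fatty acid branch, beside 0.09 over all genes. The counts of 17 and 9 were the same with libraries scaled to an equal median gene and when Ins1, Ins2 and mitochondrially encoded genes were left out of the scaling, and neither insulin-poor library enters them. Genes within a branch share these 2 libraries, so the counts describe 2 libraries and carry no test. The WT pair also differed by more than any groups in both branches (medians -0.64 and -0.52), and the KO pair in the sterol branch only (0.40). Single libraries vary more than the means of 2 that the group comparisons use. The contrast within KO+DNMT3A was not among the planned comparisons.

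Hmgcs1 was 3.30 times higher in replicate 1 (182 against 32 inferred fragments, exact binomial 95% interval 2.26 to 4.98, counting error only). Scd2 was 3.36 times higher (2.41 to 4.81), Elovl5 3.95 times (2.66 to 6.34), Acly 2.45 times (2.19 to 2.74), Sqle 2.14 times (1.48 to 3.10) and Fdft1 2.02 times (1.5 to 2.81). These ratios are beyond counting error. Of the regulators, Srebf2 was also higher in replicate 1, with a ratio of 1.52 (1.21 to 1.91). The ratios of Insig2 (1.83, 0.938 to 3.65), Insig1 (0.982, 0.681 to 1.42) and Scap (0.736, 0.428 to 1.31) were within counting error. Srebf1 went the other way, with a ratio of 0.381 (0.273 to 0.526). Fasn was also lower in replicate 1, at 5.95 against 8.68 FPKM, and Idi1 was 1.52 against 2.42 FPKM.

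Of all 35 members, 17 had their highest value of the 6 libraries in KO+DNMT3A replicate 1, 11 of them sterol and 5 fatty acid genes, against 24.2% of genes tested, and 1, Srebf1, had it in KO+DNMT3A replicate 2. KO+DNMT3A replicate 1 is also the library of greatest inferred depth. Duct markers moved with it: the 6 duct genes summed to 700 FPKM there and 111 FPKM in replicate 2, with Krt19 at 94.6 and 2.30 FPKM and Cftr listed at 0 in all libraries. WT replicate 1, with a duct sum of 2280 FPKM, had the lowest sterol sum. Stroma markers summed to 324 and 137 FPKM in the 2 KO+DNMT3A libraries, macrophage markers to 218 and 145 FPKM, Schwann cell markers to 28.9 and 15.7 FPKM, other hormone cell markers to 17500 and 31100 FPKM, and beta cell markers to 125000 and 152000 FPKM. The part of depth and of these cell types in the contrast was not tested.

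**Figure D5:**
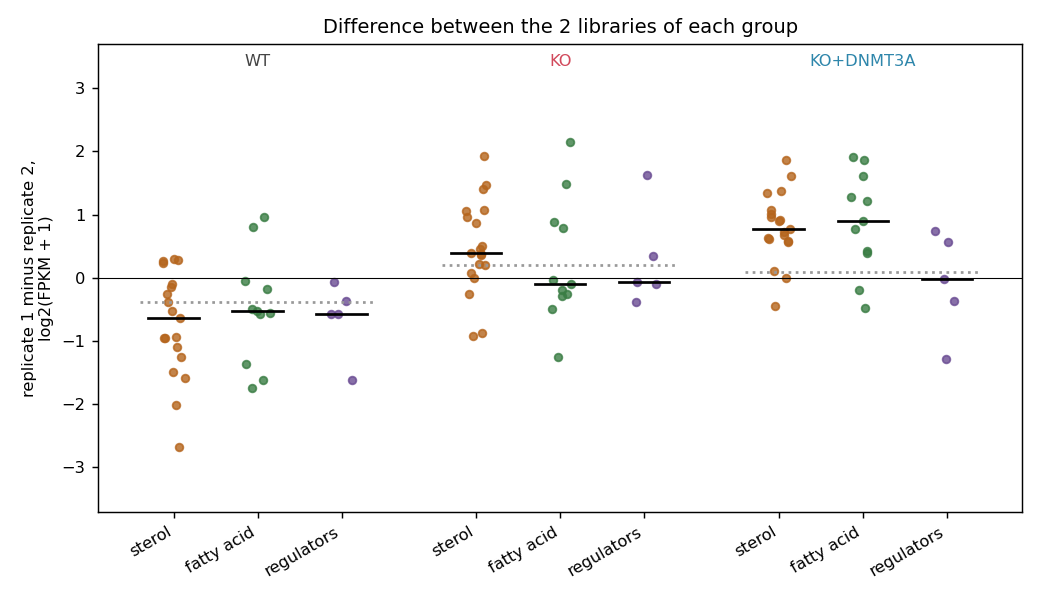
Replicate 1 minus replicate 2 on the log2(FPKM + 1) scale for each member (points) in each group, by branch, with the branch median (black bar) and the median of all genes tested (dotted line). In KO+DNMT3A the sterol and fatty acid medians, 0.77 and 0.90, stand above the 0.09 of all genes, and that of the regulators is -0.02.

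The same contrast in the other groups sets the 2 insulin-poor libraries against their partners. In KO, replicate 1 exceeded the insulin-poor replicate 2 for 15 of 19 sterol genes (median 0.40) and 4 of 11 fatty acid genes (median -0.09; 6 of 11 with the rescaling), beside 0.21 over all genes. In WT, the insulin-poor replicate 1 exceeded replicate 2 for 4 of 19 sterol and 2 of 11 fatty acid genes (medians -0.64 and -0.52), beside -0.38 over all genes. Fatty acid genes with at least 10 inferred fragments in both KO libraries went both ways. Acly was 4.54 times and Elovl5 3.02 times higher in replicate 1. Fasn (3.68 against 10.1 FPKM), Scd2 (13.1 against 18.8 FPKM) and Fads1 (6.49 against 8.16 FPKM) were lower there, Fads1 within counting error.

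Genes around the 2 branches gave no calls either. Of 16 further sterol genes, which cover uptake, export and regulation and include the endosomal cholesterol carriers Npc1 and Npc2, the acyltransferase Soat1, the exporters Abca1 and Abcg1, the oxysterol receptors Nr1h2 and Nr1h3 and the SREBP proteases Mbtps1 and Mbtps2, 0 passed the limma test in any comparison. Their median log2 differences were 0.19 for KO against WT, 0.27 for KO+DNMT3A against KO and 0.42 for KO+DNMT3A against WT. Over all genes tested the medians were 0.03, 0.19 and 0.23, in the same order. The exporter gene Abcg1, a target of the oxysterol receptors, was 4.86 and 30.1 FPKM in the WT pair, 31.6 and 15.6 FPKM in the KO pair, and 38.7 and 11.1 FPKM in the KO+DNMT3A pair. Of 18 further genes of fatty acid activation, elongation and esterification, 16 were tested and 0 passed, with medians of 0.04, 0.09 and 0.07. Gpam, which starts triglyceride synthesis, was 3.20 and 2.95 FPKM in the WT pair, 0.55 FPKM and 0 in KO, and 1.90 and 1.40 FPKM in the KO+DNMT3A pair, and its groups did not overlap in any comparison. Abcg1 and Gpam were picked for mention after their values were seen.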

How the data were processed

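The deposited table gives FPKM per gene, per the file headers, for 6 islet libraries, made by the authors from poly-A RNA-seq. HISAT2 2.0.4, StringTie 1.3.0, edgeR and mm10 are named, per the submitters' processing notes, without their roles; annotation and filters are not given in the sources used here. Read counts were not used here. Symbols, coordinates and transcript lengths came from GENCODE M21 (GRCm38), matched by identifier; 478 genes had no symbol. Library depth was inferred from single-transcript genes, in which 84.5% to 91.8% of the values worth at most 20 fragments lay within 0.01 of a whole number of fragments.

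Genes with at least 1 FPKM in 2 libraries (13233) were tested on log2(FPKM + 1) in a single limma 3.58.1 fit of all 6 libraries (R 4.3.3; trended, robust; two-sided; Benjamini-Hochberg per comparison at 0.05), checked on simulated data. The simulated noise was set well below the spread of these libraries. That check therefore covers the code and not the power of the test here. Fold changes refer to FPKM plus the pseudocount of 1, which understates changes of low genes. An exact permutation test of 2 against 2 libraries cannot go below p = 0.33 and was not used. Branch medians run over all members, tested or not, and carry no test.

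Members, branches, marker lists and further pathway genes were chosen with earlier results of these data known. Values in every library are given for the regulators, for members with a mean of at least 10 FPKM and for those whose groups do not overlap with a difference of at least 1; fitted differences for Srebf1, Srebf2, Insig1 and the 2 sterol and 2 fatty acid genes of smallest p per comparison. The values of Sqle, Scd1, Abcg1 and Gpam and the fitted difference of Hmgcs1 are exceptions, named after their values were seen. Over the 6 libraries, further marker lists had these ranges of summed FPKM: endothelial 18.3 to 46.6, Schwann 15.7 to 81.1, acinar 0 to 10.4, and other hormone cells 3380 to 31100. The processing alternatives were 2 scalings, a pseudocount of 0.1, a filter at 5 FPKM and none at all, no trend, only the groups compared, a replicate block, and libraries left out. Python 3.11.15, numpy 2.4.6, pandas 2.3.3 and matplotlib 3.10.9 were used.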

Additional observations from a re-analysis of the deposited data

How the results depend on the processing

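No gene was called in any comparison under any of the 15 alternatives run for each (0 genes each time), so no member gained a call. The sterol and fatty acid branch medians, recomputed 24 times per comparison, moved in all 24 cases of KO against WT and of KO+DNMT3A against KO and in 23 of KO+DNMT3A against WT by less than the pooled SD between libraries of a group (0.56 log2 units for the sterol and 0.48 for the fatty acid branch). The exception was the fatty acid median of KO+DNMT3A against WT, which was -0.68 without KO+DNMT3A replicate 1 and 0.39 without KO+DNMT3A replicate 2. The fit without a trend, the fit of only the groups compared and the fit without a filter leave a median of differences as it is and were not repeated for it. The replicate block and the loss of a library of the third group also leave it as it is, yet are counted among the 24. The SD is a wide limit. In KO against WT a sterol median of -0.29 without WT replicate 1 and of 0.59 without WT replicate 2 both fall within it. Named members kept their sign in all alternatives except the following, none of which was called. Leaving out each library in turn, KO against WT ranged from -0.47 to 0.10 for Srebf1 and from -0.57 to 0.01 for Srebf2 (each positive without WT replicate 2) and from -0.03 (without WT replicate 1) to 1.58 for Insig1. KO+DNMT3A against KO ranged from -0.21 to 1.08 for Srebf1 and from -1.78 to 0.13 for Fads2 (sign changed without KO+DNMT3A replicate 2), and from -0.05 (without KO+DNMT3A replicate 1) to 0.52 for Srebf2. KO+DNMT3A against WT ranged from -0.40 to 0.89 for Srebf1 (-0.40 without KO+DNMT3A replicate 2, -0.04 without WT replicate 1), from -0.34 to 0.24 for Srebf2 (0.24 without WT replicate 2 or KO+DNMT3A replicate 2) and from -0.28 (without WT replicate 1) to 1.33 for Insig1. Without both insulin-poor libraries Insig1 (-0.08) and Me1 (0.31) changed sign in KO against WT, and Srebf1 (-0.04) and Insig1 (-0.28) in KO+DNMT3A against WT; the cause was not tested. With a replicate block 0 genes were called. The block uses the replicate numbers of the sample titles, for which no shared source is stated: same-numbered libraries deviated with correlations of -0.269 (WT and KO), 0.101 (WT and KO+DNMT3A) and 0.318 (KO and KO+DNMT3A), so they were not taken as pairs. The deposited column names carry other numbers, of which only 3 recurs, on WT replicate 1, KO replicate 2 (both insulin-poor) and KO+DNMT3A replicate 2. Those libraries deviated with correlations of 0.269 (WT and KO), -0.101 (WT and KO+DNMT3A) and 0.318 (KO and KO+DNMT3A). With 2 libraries in each group their deviations are exact opposites. These correlations are therefore the values above, with the sign changed where 1 library of the 2 is swapped, and are not a second check. Any 2 groups share just this 1 number there, so a block by it leaves no test.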
